A study of Homo sapiens with 6 samples.

Results

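The insulin-like growth factor (IGF) axis is described here by 10 genes picked by name, with earlier results of these data known. They are the ligands IGF1 and IGF2, the receptors IGF1R and IGF2R, and the binding proteins IGFBP2 to IGFBP7. Of these, 9 had a row among the 22604 genes of the count table, and IGF2 was not analysed here. A filter on low counts kept 13501 genes, 8 of them members, and IGFBP6 was the member it removed. RNA-seq was run on SKNMC, a Ewing sarcoma cell line driven by the fusion protein EWS-FLI1, in 3 groups of 2 libraries. EV cells carried an empty expression vector, NFIB WT cells a vector for wild-type NFIB, and NFIB ΔIDR cells a vector for NFIB without its intrinsically disordered region (IDR). NFIB is a transcription factor of the nuclear factor I family, and an IDR is a protein stretch with no fixed fold. According to the methods of the study, the vectors were delivered by lentivirus to the same parental line and infected cells were selected with puromycin, so each group is a pool of infected cells rather than a clone. The expressed NFIB carried a V5 tag, and all groups kept their own NFIB gene and grew in medium with fetal bovine serum without further treatment. The study used these cells to ask how the IDR contributes to gene activation by NFIB.

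IGF1 and IGF2 are secreted hormones that activate IGF1R, a receptor tyrosine kinase that signals through the IRS and SHC adaptors to the PI3K-AKT and RAS-MAPK pathways. IGF2R, also called the mannose 6-phosphate receptor, takes up IGF2 for degradation and has no kinase. The IGFBPs bind the ligands outside the cell and withhold or deliver them, and proteases such as PAPPA cleave some of them and release the ligand. Ewing sarcoma cells are known for their reliance on IGF1R signalling, and IGFBP3 is a known target of repression by EWS-FLI1.

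The libraries held 6664231 to 8465572 counts, so a level of 1 CPM (counts relative to the library total, scaled by the trimmed mean of M values) stood for 6.67 to 8.37 counts. NFIB itself was at 175.7 and 144.6 CPM in EV, 969 and 1051 CPM in NFIB WT and 2227 and 2332 CPM in NFIB ΔIDR, counts that pool the cells' own NFIB transcript with that of the vector. The pooled NFIB level was thus lower in NFIB WT than in NFIB ΔIDR cells (log2 difference -1.17, adjusted p = 0.000191, edgeR). In every comparison between the forms below, loss of the IDR and this difference in NFIB RNA level cannot be told apart. The RNA level is not a measure of the NFIB protein. The study shows a western blot of the V5-tagged proteins in these cells, which was not analysed here. The NFIB WT pair differed more between its libraries than the other pairs, with an SD of log2 differences over genes of 0.376, against 0.281 for EV and 0.279 for NFIB ΔIDR. The chi-square per degree of freedom between the libraries of a pair was 9.04 for NFIB WT, 1.83 for EV and 1.62 for NFIB ΔIDR. Since all groups entered 1 model, p-values of NFIB ΔIDR against EV also carry the spread of the NFIB WT pair. Of 10 Ewing sarcoma markers, 9 had a row and all 9 were detected in every library, with a summed level of 2700 to 2727 CPM in EV, 3008 to 3105 CPM in NFIB WT and 2535 to 2601 CPM in NFIB ΔIDR, and LIPI was the 1 marker called in NFIB WT against EV (higher). CCND1 was the largest part of this sum, with means of 1257 CPM in EV, 1580 CPM in NFIB WT and 1182 CPM in NFIB ΔIDR. In NFIB WT against EV, NR0B1, STEAP1, PRKCB, BCL11B and GLI1 had negative log2 fold changes, from -0.07 to -0.78. Those of NKX2-2, LIPI, CCND1 and KDSR were positive. All 8 fibroblast markers were detected in every library, at a summed 421 to 435 CPM in EV, 566 to 581 CPM in NFIB WT and 385 to 393 CPM in NFIB ΔIDR, and in NFIB WT against EV 2 of them rose (DCN and FAP) and 0 fell, with PDGFRA at -0.94, COL1A1 at -0.49 and THY1 at -0.10 on the log2 scale short of the threshold (edgeR). Between the forms, 5 fibroblast markers were higher and 2 lower in NFIB WT, the lower ones being COL1A1 (log2 fold change -1.08) and PDGFRA (-1.95). Of the 9 Ewing sarcoma markers, 3 were higher there (LIPI, CCND1 and KDSR) and 1 was lower (STEAP1, -0.34). Of 3 tested epithelial markers, 0 were higher and 1 was lower (KRT8, -1.46). Among all tested genes, 5.52% were higher and 5.19% lower between the forms (edgeR). The 4 endothelial markers summed to 1.42 to 2.55 CPM, and 5 epithelial markers summed to 185 to 263 CPM in EV and NFIB WT and 294 to 340 CPM in NFIB ΔIDR. KRT18 was the largest part of the epithelial sum, with means of 215 CPM in EV, 212 CPM in NFIB WT and 297 CPM in NFIB ΔIDR. Blood markers summed to 255 to 317 CPM, nearly all from PTPRC, with 1 of 4 at 0 in EV and in NFIB WT. The part of these markers in the results below was not tested. In bulk RNA, fewer cells of a type and less RNA per cell cannot be told apart.

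No ligand or receptor gene passed the test in any of the 3 comparisons (edgeR, all 6 libraries). IGF1, whose product is the ligand measured here, was at 99.1 and 100.5 CPM in EV, 103.8 and 93.5 CPM in NFIB WT and 88.5 and 85.3 CPM in NFIB ΔIDR. Its NFIB WT libraries lay on either side of EV (log2 fold change -0.02, 95% interval -0.22 to 0.19, adjusted p = 0.952, edgeR). Its NFIB ΔIDR libraries lay below all 4 others, but the difference from EV did not pass the test (log2 fold change -0.20, 95% interval -0.41 to 0.01, adjusted p = 0.350, edgeR). IGF1R, the signalling receptor, was at 51.0 and 55.1 CPM in EV, 52.3 and 53.2 CPM in NFIB WT and 51.4 and 52.7 CPM in NFIB ΔIDR, and these pairs overlapped. The 95% intervals of its log2 fold changes were -0.23 to 0.21 for NFIB WT against EV and -0.25 to 0.19 for NFIB ΔIDR against EV. IGF2R, the clearance receptor, was at 70.0 and 74.1 CPM in EV, 64.6 and 77.3 CPM in NFIB WT and 80.9 and 86.2 CPM in NFIB ΔIDR. Its NFIB ΔIDR libraries were the highest of the 6, without passing the test against EV (log2 fold change 0.21, 95% interval -0.03 to 0.45, adjusted p = 0.392, edgeR). Fitting EV and NFIB ΔIDR alone with edgeR brought the differences of IGF1 and IGF2R from EV past the threshold, with adjusted p = 0.0482 and 0.0473. That fit called 14.2% of all genes tested. Between the forms, the adjusted p was 0.242 for IGF1 and 0.195 for IGF2R with all 6 libraries. Without NFIB WT replicate 2, the log2 fold changes between the forms were 0.26 and -0.37, in place of 0.18 and -0.23.

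**Figure D1:**
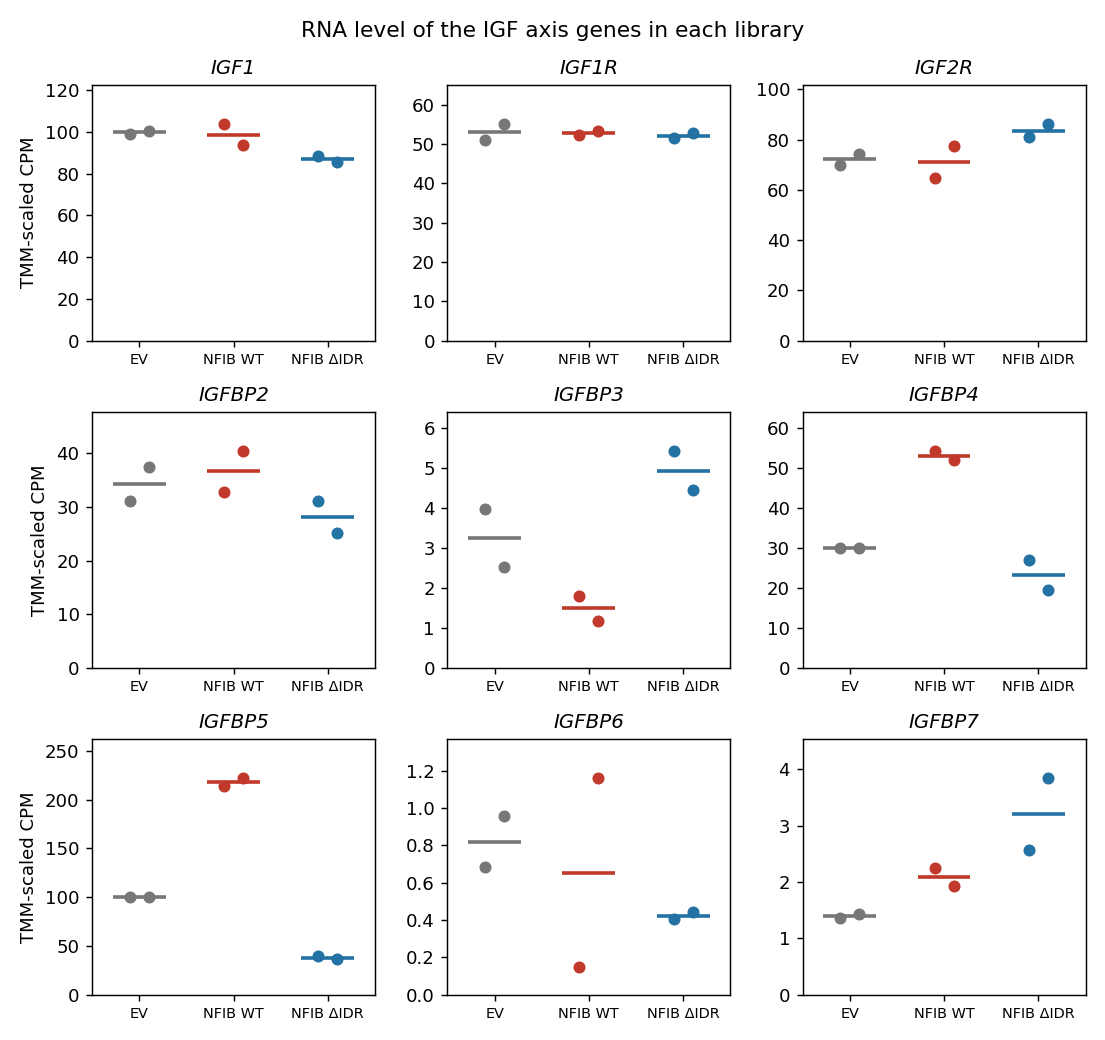
TMM-scaled CPM of the 9 measured IGF axis genes, with a point for each library, a line for the mean of the group and a separate vertical axis from 0 for each gene. IGFBP5 and IGFBP4 were highest in NFIB WT, IGFBP3 was lowest there, and IGF1R lay between 51.0 and 55.1 CPM in every library.

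The binding protein genes held all the calls. IGFBP5 (hg19, chr2:217536828-217560272, - strand) encodes a binding protein that also attaches to extracellular matrix. It was at 100.05 and 99.8 CPM in EV (733 and 835 counts), 214 and 222 CPM in NFIB WT (1426 and 1722 counts) and 39.5 and 36.3 CPM in NFIB ΔIDR (292 and 246 counts). The 3 pairs did not overlap, and the deleted form stood on the opposite side of EV from the wild-type form. IGFBP5 rose 2.18-fold in NFIB WT against EV (log2 fold change 1.12, SE 0.09, adjusted p = 0.000348, edgeR). Against the same EV libraries, it fell 2.63-fold under the deleted form (log2 fold change -1.40, SE 0.10, adjusted p = 0.000147, edgeR). The direct difference between the forms was 5.74-fold (log2 fold change 2.52, 95% interval 2.31 to 2.73, adjusted p = 5.69e-07, edgeR). Every one of 17 alternative analyses kept the direction and the call in all 3 comparisons, with adjusted p up to 0.0368. The antisense gene DIRC3-AS1, which overlaps it by 1146 bases, had 10 to 14 counts per library.

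IGFBP4 (hg19, chr17:38599702-38613977, + strand), which encodes a binding protein known mainly as an inhibitor of IGF action, was at 29.9 and 29.9 CPM in EV (219 and 250 counts), 54.1 and 51.9 CPM in NFIB WT (361 and 403 counts) and 26.9 and 19.5 CPM in NFIB ΔIDR (199 and 132 counts). Its NFIB WT libraries stood above all others, and the NFIB ΔIDR libraries were below EV but far from each other. IGFBP4 rose 1.77-fold in NFIB WT against EV (log2 fold change 0.83, SE 0.14, adjusted p = 0.0253, edgeR) and stood 2.27-fold above the deletion (log2 fold change 1.19, SE 0.14, adjusted p = 0.00118, edgeR). The lower level in NFIB ΔIDR than in EV did not pass the test (log2 fold change -0.36, 95% interval -0.68 to -0.04, adjusted p = 0.280, edgeR). The call against EV was lost without EV replicate 1 (adjusted p = 0.323) or 2 (0.357), without NFIB ΔIDR replicate 1 (0.0618) or 2 (0.0613), and in a fit of EV and NFIB WT alone (0.0691). The difference between the forms kept its call in all 17 alternatives, with adjusted p up to 0.0322. For the drop in NFIB ΔIDR, fitting EV and NFIB ΔIDR alone brought the adjusted p to 0.0242, where 14.2% of all genes tested were called. Without NFIB WT replicate 1 or 2, the log2 fold change of this drop was -0.36 each.

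IGFBP3 (hg19, chr7:45951844-45961473, - strand) encodes the main IGF carrier of blood plasma and was low in these cells. It had 29 and 21 counts in EV (3.96 and 2.51 CPM), 12 and 9 counts in NFIB WT (1.80 and 1.16 CPM) and 40 and 30 counts in NFIB ΔIDR (5.41 and 4.43 CPM). Its order of groups was the reverse of that of IGFBP5 and IGFBP4, without overlap between the pairs. The difference between the forms passed the test, with IGFBP3 3.36-fold lower under the wild-type form (log2 fold change -1.75, SE 0.35, adjusted p = 0.0130, edgeR), and this call was lost without NFIB ΔIDR replicate 1 (0.136) or 2 (0.0797). Neither form differed from EV past the threshold (log2 fold change -1.12, 95% interval -1.96 to -0.28, adjusted p = 0.248 for NFIB WT, and 0.63, 95% interval -0.03 to 1.28, adjusted p = 0.350 for NFIB ΔIDR, edgeR).

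The other binding protein genes gave no calls. IGFBP2, which lies next to IGFBP5 in the genome, was at 31.1 and 37.4 CPM in EV, 32.8 and 40.4 CPM in NFIB WT and 31.1 and 25.1 CPM in NFIB ΔIDR. The pairs of EV and NFIB WT overlapped, and the difference between the forms did not pass the test (log2 fold change 0.38, 95% interval 0.05 to 0.72, adjusted p = 0.136, edgeR). It passed without a filter on low counts (0.0470), where 10.1% of all genes were called. Without NFIB WT replicate 1, the log2 fold change was 0.52. IGFBP7 encodes a family member that binds IGFs weakly, and had 10 and 12 counts in EV, 15 and 15 in NFIB WT and 19 and 26 in NFIB ΔIDR. NFIB ΔIDR was highest, at 2.57 and 3.84 CPM against 1.36 and 1.43 CPM in EV, without passing the test (log2 fold change 1.17, 95% interval 0.40 to 1.95, adjusted p = 0.152, edgeR). The adjusted p was 0.0221 in a fit of EV and NFIB ΔIDR alone, where 14.2% of all genes tested were called. Without NFIB WT replicate 1 or 2, the log2 fold change was 1.17 each. The gene overlaps POLR2B, which had 2981 to 3759 counts per library, by 386 bases on the opposite strand, and whether the counting used strand was not stated. IGFBP6, a binding protein that prefers IGF2, had 5 and 8 counts in EV, 1 and 9 in NFIB WT and 3 and 3 in NFIB ΔIDR, against a floor of 3 counts (0.358 to 0.450 CPM), and was too low to be tested.

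The promoters of IGFBP5, IGFBP4 and IGFBP3 are shown because these genes carried all member calls. Each is the 250 bases before the transcription start site from RefSeq (GRCh38.p14), written 5′ to 3′ on the strand of the gene.
IGFBP5, chr2:216695550-216695799, - strand: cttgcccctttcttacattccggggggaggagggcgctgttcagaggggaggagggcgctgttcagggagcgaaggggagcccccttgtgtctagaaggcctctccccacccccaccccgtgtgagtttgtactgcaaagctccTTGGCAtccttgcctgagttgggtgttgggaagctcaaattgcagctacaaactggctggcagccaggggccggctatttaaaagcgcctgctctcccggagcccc
IGFBP4, chr17:40443200-40443449, + strand: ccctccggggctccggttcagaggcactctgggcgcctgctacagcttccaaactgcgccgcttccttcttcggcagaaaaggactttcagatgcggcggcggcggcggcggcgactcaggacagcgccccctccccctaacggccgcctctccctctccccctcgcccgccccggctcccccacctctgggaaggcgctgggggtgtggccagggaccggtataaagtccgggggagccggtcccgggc
IGFBP3, chr7:45921273-45921522, - strand: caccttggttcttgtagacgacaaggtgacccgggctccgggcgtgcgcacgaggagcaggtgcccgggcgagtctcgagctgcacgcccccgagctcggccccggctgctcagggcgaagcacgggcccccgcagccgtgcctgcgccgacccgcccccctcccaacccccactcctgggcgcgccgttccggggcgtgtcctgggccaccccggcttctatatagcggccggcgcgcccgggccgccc
The capitals in the IGFBP5 promoter mark TTGGCA, a 6-base form of the motif of nuclear factor I proteins, 106 to 101 bases before the start. TTGGCA, searched on both strands like the other motifs, was in 10.8% of all 35116 windows of this length, and neither the IGFBP4 nor the IGFBP3 window held it. The paired motif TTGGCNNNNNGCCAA was in 0.0285% of all windows, its 5-base arm TTGGC, which both longer forms contain, in 40.8%, and the repeated ETS core GGAAGGAA in 3.06%. Of the 11 start sites with an entry, which covered 8 of the 10 member genes, the only other match to these motifs was TTGGC at the second start site of IGFBP2. The study gives the NFIB half-site as TGGCA. That shorter form was not searched by itself, so a copy outside TTGGCA is left unmarked. The GC content was 61.2% for IGFBP5, 71.6% for IGFBP4 and 76.0% for IGFBP3, against a median of 58.0% over all windows. These matches describe letters in a short window, and binding there was not analysed here.

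**Figure D2:**
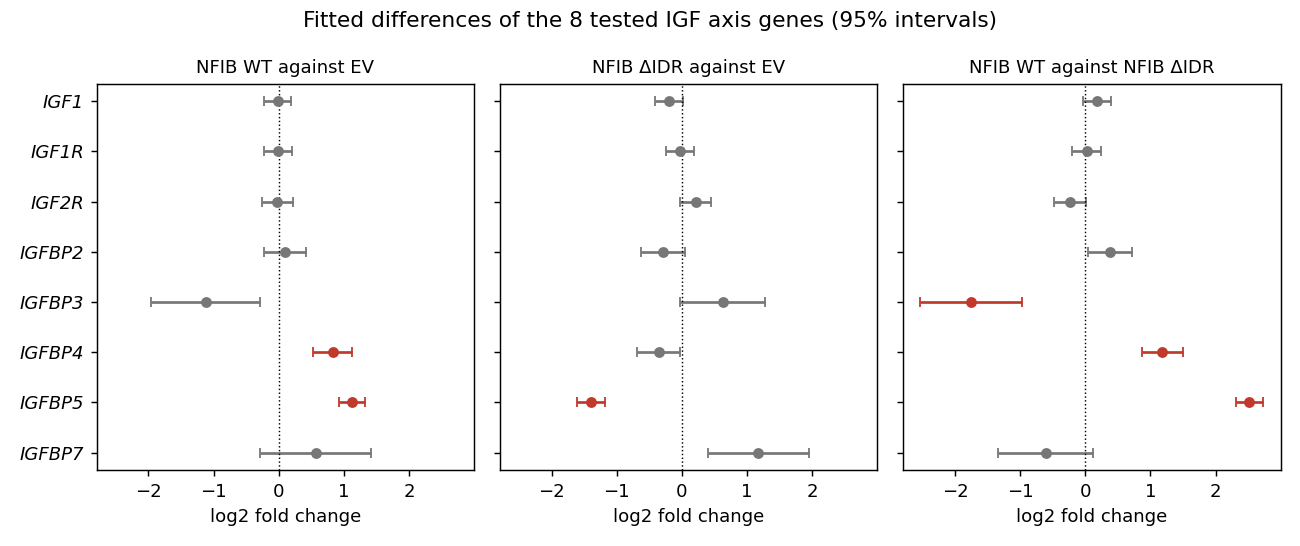
Fitted log2 fold changes (horizontal axis) of the 8 tested IGF axis genes in the 3 comparisons, with 95% intervals as bars and red for an adjusted p under 0.05. IGFBP5 stood at 1.12, -1.40 and 2.52, and the intervals of IGF1 and the receptors included 0 in every comparison.

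Counted over the 8 tested members, 2 rose and none fell in NFIB WT against EV (edgeR, adjusted p under 0.05), where 0.452% of all tested genes rose and 0.163% fell. At an unadjusted p under 0.05, 1 member, IGFBP3, was lower (6.42% of all tested genes), and DESeq2 likewise called 2 higher and 0 lower. With NFIB ΔIDR against EV, 0 members rose and 1 fell, where 0.296% of all tested genes rose and 0.356% fell; at an unadjusted p under 0.05, 1 member was higher and 2 were lower (7.77% and 7.42% of all tested genes), and DESeq2 called 0 higher and 1 lower. Between the forms, NFIB WT had 2 members above and 1 below NFIB ΔIDR, where 5.52% of all tested genes were higher and 5.19% lower. At the thresholds the study names, a fold of 1.5 with the p taken as unadjusted, edgeR put 2 members above and 1 below EV in NFIB WT (2.13% and 1.75% of all tested genes), 1 above and 1 below EV in NFIB ΔIDR (3.09% and 1.68%), and 2 above and 1 below between the forms (4.3% and 5.69%). DESeq2, the tool the study names, gave IGFBP3 an unadjusted p of 0.0514 in NFIB WT against EV. It gave IGFBP7 an unadjusted p of 0.0624 in NFIB ΔIDR against EV. Neither gene met the thresholds there, where 1.11% and 1.33% of all genes did. Pairs that did not overlap were common and are not read as calls: 4 of the 8 members in the first comparison against 42.9% of all tested genes, 7 of 8 in the second against 53.3%, and 7 of 8 between the forms against 55.3%. The median log2 fold change of the 8 members was 0.04, -0.11 and 0.10 in the 3 comparisons, against 0.00 for all tested genes in each. The members called in any comparison were IGFBP5, IGFBP4 and IGFBP3. Since the members were chosen with earlier results of these data known, these counts are a description.

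Levels were also compared between genes as RPKM, here CPM per kilobase of the gene length in the count table. With EV, the order was IGFBP2 at 17.1, IGFBP5 at 16.0, IGFBP4 at 13.4, IGF1 at 13.2, IGF2R at 5.13, IGF1R at 4.34, IGFBP3 at 1.23, IGFBP7 at 1.06 and IGFBP6 at 0.848 RPKM, and the libraries of IGFBP2 and IGFBP5 and those of IGFBP3 and IGFBP7 overlapped. With NFIB WT, IGFBP5 came first at 34.9 ± 0.896 RPKM (SD, n = 2), ahead of IGFBP4 at 23.7 ± 0.709 RPKM and IGFBP2 at 18.3 ± 2.68 RPKM. With NFIB ΔIDR, IGFBP2 led at 14.0 ± 2.12 RPKM, followed by IGF1 at 11.5 and IGFBP4 at 10.4 RPKM, which overlapped. IGFBP5 followed these at 6.08 ± 0.362 RPKM, and overlapped IGF2R at 5.95 RPKM.

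The summed RNA of the 6 binding protein genes followed IGFBP5 and IGFBP4. The sum was 48.2 and 51.0 RPKM in EV, 77.4 and 82.0 RPKM in NFIB WT and 38.3 and 32.1 RPKM in NFIB ΔIDR, without overlap between the pairs. IGFBP5 made up 32.3% ± 1.38 of it in EV, 43.8% ± 0.668 in NFIB WT and 17.3% ± 1.14 in NFIB ΔIDR (SD, n = 2 each). Relative to IGF1, the sum was 3.77 ± 0.116 in EV, 6.15 ± 0.704 in NFIB WT and 3.07 ± 0.304 in NFIB ΔIDR (SD, n = 2 each). Without IGFBP5, it was 33.6 ± 2.06 RPKM in EV, 44.8 ± 2.36 RPKM in NFIB WT and 29.1 ± 4.03 RPKM in NFIB ΔIDR. With 2 libraries a group an exact 2-sided permutation test of a sum cannot give a p below 0.333, so these sums are given as a description of RNA and not of protein.

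**Figure D3:**
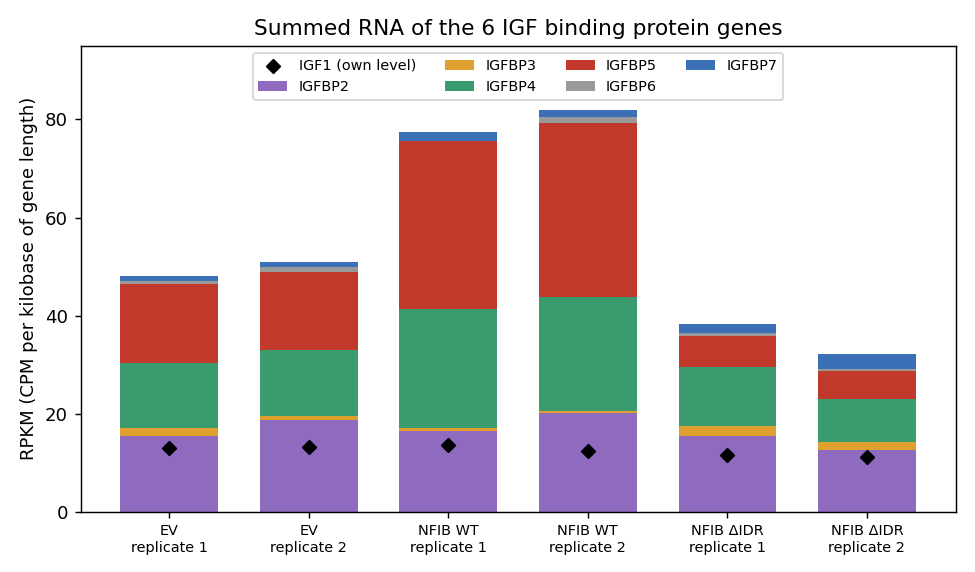
Stacked RPKM of the 6 measured IGF binding protein genes in each library, with a diamond for the level of IGF1 on the same axis. The bars reached 77.4 and 82.0 RPKM in NFIB WT and 38.3 and 32.1 RPKM in NFIB ΔIDR, and the IGFBP5 segment changed most.

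Outside the cell, the IGF axis is also set by proteases, their inhibitors and further receptors. Of 60 other pathway genes in 4 lists, 56 had a row and 49 were tested. Of the 7 tested genes for secreted and surface partners, PAPPA rose in NFIB WT against EV and none fell. PAPPA encodes a metalloprotease that cleaves IGFBP4 and IGFBP5, and it was at 414 and 393 CPM in EV, 627 and 606 CPM in NFIB WT and 355 and 351 CPM in NFIB ΔIDR. It followed the order of IGFBP5 and IGFBP4, without overlap, and rose 1.53-fold in NFIB WT against EV (log2 fold change 0.61, SE 0.08, adjusted p = 0.00682, edgeR). The difference between the forms was 1.75-fold (log2 fold change 0.80, SE 0.08, adjusted p = 0.000433, edgeR) and held in all 17 alternatives. The call against EV was lost without EV replicate 1 (adjusted p = 0.153) or 2 (0.278), without NFIB ΔIDR replicate 1 (0.0685) or 2 (0.0686), and in a fit of EV and NFIB WT alone (0.0810).

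STC2, whose product inhibits PAPPA, had the opposite order. It was at 18.8 and 19.96 CPM in EV, 13.2 and 13.9 CPM in NFIB WT and 23.5 and 24.4 CPM in NFIB ΔIDR. It was lower under the wild-type than under the deleted form (log2 fold change -0.82, SE 0.13, adjusted p = 0.00425, edgeR), a call lost without NFIB ΔIDR replicate 1 (0.0593) or 2 (0.0680), and neither difference from EV passed the test (adjusted p = 0.126 in NFIB WT and 0.274 in NFIB ΔIDR). INSR, the insulin receptor, which can pair with IGF1R, differed from EV by a log2 fold change of 0.15 in NFIB WT and 0.21 in NFIB ΔIDR (adjusted p = 0.541 and 0.374, edgeR).

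The CCN proteins share an IGFBP-like domain at their start. Of 4 tested, 0 passed against EV with either form (edgeR), while 3 in NFIB WT and 0 in NFIB ΔIDR had an unadjusted p under 0.05, as did 13.4% and 15.2% of all tested genes. NOV, also called CCN3, had 13 and 16 counts in EV, 31 and 36 in NFIB WT and 9 and 5 in NFIB ΔIDR. It was 4.64-fold higher under the wild-type than under the deleted form (log2 fold change 2.21, SE 0.34, adjusted p = 0.00385, edgeR), a call lost without NFIB ΔIDR replicate 1 (0.0502) or 2 (0.0691). Against EV in NFIB WT, the log2 fold change was 1.32 for NOV, 0.68 for CYR61 and 0.83 for CTGF, with adjusted p of 0.0767, 0.143 and 0.162 (edgeR). NOV passed without a filter on low counts (adjusted p = 0.00346, edgeR), where 2.39% of all genes were called. Without NFIB WT replicate 1 or 2, the log2 fold change of NOV was 1.32 and 1.33.

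Downstream of the receptor, 35 signalling genes were tested. None passed against EV with either form (edgeR, 0 of 35 each), while 7 in NFIB WT and 5 in NFIB ΔIDR had an unadjusted p under 0.05, against 13.4% and 15.2% of all tested genes. DESeq2 called 0 of the pathway genes in NFIB ΔIDR against EV and 1 in NFIB WT. Between the forms, NFIB WT had 5 of them above and 1 below NFIB ΔIDR, where 5.52% of all tested genes were higher and 5.19% lower. SHC1, an adaptor that couples IGF1R to RAS, was at 101 and 102 CPM in EV, 132 and 117 CPM in NFIB WT and 84.2 and 80.9 CPM in NFIB ΔIDR (log2 fold change between the forms 0.59, SE 0.10, adjusted p = 0.00483, edgeR). AKT1, a kinase downstream of PI3K, was at 44.5 and 48.6 CPM in EV, 60.4 and 59.4 CPM in NFIB WT and 36.1 and 42.2 CPM in NFIB ΔIDR (0.61, SE 0.11, adjusted p = 0.00792, edgeR). These genes again had NFIB WT highest and NFIB ΔIDR lowest, with log2 fold changes between the forms of 0.59 and 0.61 against 2.52 for IGFBP5. The other higher genes were INPPL1, a lipid phosphatase, at 0.57 (adjusted p = 0.00850), AKT2, another AKT kinase, at 0.39 (0.0350), and GAB1, a docking protein, at 0.54 (0.0460) on the log2 scale. FOXO4, a transcription factor inhibited by AKT, was the lower gene (log2 fold change -0.81, SE 0.19, adjusted p = 0.0257, edgeR). DESeq2 did not call GAB1 (0.119), AKT2 (0.138) and FOXO4 (0.211), and without either NFIB ΔIDR library PAPPA was the 1 gene of all pathway lists still called, with 0.815% (replicate 1 left out) and 0.783% (replicate 2) of all genes tested called. Without either EV library, 6 pathway genes were called between the forms, beside 5.14% and 5.2% of all genes. Without NFIB WT replicate 1 or 2, 5 and 17 pathway genes passed in NFIB WT against EV and 7 each in NFIB ΔIDR against EV, in place of 1 and 0. The share of all genes tested that was called rose as well, to 3.68% and 21.9% in NFIB WT against EV and to 13.2% and 13.3% in NFIB ΔIDR against EV.

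Over the 49 pathway genes together, 7 were higher and 2 lower between the forms, against the background of 5.52% and 5.19% given above. The RNA-binding proteins IGF2BP1, IGF2BP2 and IGF2BP3, which bind the IGF2 transcript, gave 0 calls in any comparison (edgeR), with 1 of the 3 at an unadjusted p under 0.05 in each comparison with EV and 0 between the forms, where 27.5% of all tested genes were. IGF2BP1 was the most abundant of them, at 483 to 548 CPM over the 6 libraries.

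**Figure D4:**
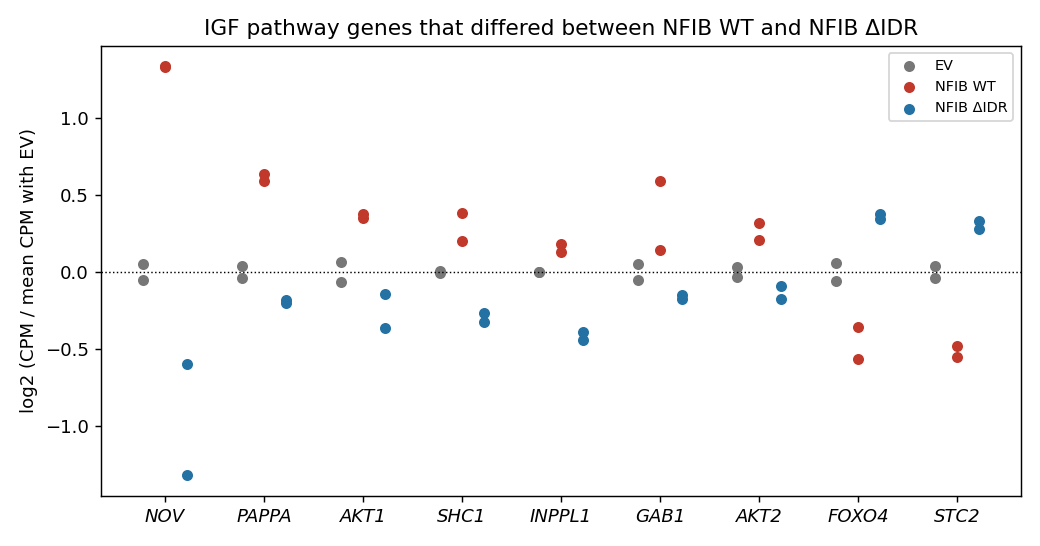
Log2 of the CPM in each library over the mean CPM in EV (vertical axis) for the 9 IGF pathway genes outside the 10 members that differed between NFIB WT and NFIB ΔIDR at an adjusted p under 0.05. In 7 genes, from NOV to AKT2, the NFIB WT libraries were above and the NFIB ΔIDR libraries below the EV mean, and FOXO4 and STC2 had the reverse order.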

How the data were processed

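Total RNA of 6 SKNMC libraries (3 groups of 2) was sequenced after preparation with the CORALL Total RNA kit. The authors made the deposited values, raw counts of reads per gene, with CASAVA 2.19, STAR 2.4.0h on hg19 and featureCounts, per the labels; whether strand or molecular identifiers were used in counting was not stated. The study describes independent samples and an experiment done in duplicate, and the labels do not name separate cultures, so p-values measure the spread between these libraries. edgeR 4.0.16 (R 4.3.3) was used for filtering by filterByExpr (at least 10 counts, 15 in total), TMM scaling and quasi-likelihood tests. All 6 libraries entered 1 model without covariates, and p-values were adjusted by Benjamini-Hochberg over the 13501 genes tested. A gene was called at an adjusted p under 0.05. The thresholds of the study (DESeq2, 1.5-fold, P under 0.05), DESeq2 1.42.0 at an adjusted p, no filter, other scalings, fits of 2 groups and leaving out each library were among 17 alternatives. The common biological coefficient of variation was 0.0776; intervals cover the spread between libraries, and floors cover counting error only. The edgeR steps were tested on simulated data. Named genes were NFIB, the 10 members, pathway genes called in any comparison at 1 CPM or more in a group or, where a list had none, up to 3 of smallest p, and the 5 genes of at least 10 CPM most correlated with IGFBP5. The members and lists were chosen with earlier results of these data known. Promoter sequences came from a RefSeq table (GRCh38.p14) and gene positions from an hg19 annotation.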

Additional observations from a re-analysis of the deposited data

How the results depend on the processing

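The 17 alternatives were tallied over NFIB, the 8 tested members and the 9 pathway genes called between the forms, not over the other genes named. They kept direction and call in 825 cases, brought 34 past the threshold, lost 48 and turned 8. The cause was not tested. The turned values all came from leaving out 1 library: the log2 fold change in NFIB WT against EV then ranged from -0.063 to 0.24 for IGFBP2, from -0.057 to 0.051 for IGF1R, from -0.15 to 0.10 for IGF2R and from -0.093 to 0.060 for IGF1, and that of IGF1R in NFIB ΔIDR against EV from -0.081 to 0.027. In fits of the compared groups alone, with NFIB WT against EV 1 member and 0 pathway genes were called (0.0985% of all genes), and with NFIB ΔIDR against EV 5 members and 7 pathway genes (14.2%). Without a filter on low counts, 5 pathway genes were called with NFIB WT (2.39% of all genes) and 1 with NFIB ΔIDR against EV (2.43%). At a fold of 1.5 and unadjusted p, 4 pathway genes were called with NFIB WT against EV by edgeR (3.88%) and 4 by DESeq2 (1.11%), and 2 members with NFIB ΔIDR by edgeR (4.77%). Leaving out each library in turn gave 1 to 2 members with NFIB WT against EV, 1 to 3 with NFIB ΔIDR against EV and 2 to 5 between the forms, and for pathway genes 0 to 17, 0 to 7 and 1 to 16, while the share of all genes called ran from 0.0645% to 21.9%, from 0.0286% to 13.3% and from 0.783% to 31.6%. Deviations of libraries with the same replicate number were weakly correlated between groups (0.153, 0.0156 and 0.0539). With the replicate number as a block the calls were 2, 1 and 3 members and 1, 0 and 10 pathway genes. The share of all genes called was then 1.39%, 1.79% and 15.5%, in place of 0.615%, 0.652% and 10.7%. Depth limits IGFBP3, IGFBP6, IGFBP7 and NOV, with at most 40 counts per library.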

Other observations

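IGFBP2 and IGFBP5 are neighbours on chromosome 2 (hg19, chr2:217497551-217529159 on the + strand and chr2:217536828-217560272 on the - strand), lie tail to tail with 7668 bases between them, and have 0 annotated genes in the gap. Between NFIB WT and NFIB ΔIDR, IGFBP5 differed by 5.74-fold and IGFBP2 by 1.30-fold, and only that of IGFBP5 passed the test (edgeR, adjusted p = 5.69e-07 against 0.136). The difference between the genes was not tested.

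Among 9015 genes of at least 10 CPM, those whose log2 CPM over the 6 libraries was most like that of IGFBP5 were RCOR1, a corepressor, and MGAT5, a glycosyltransferase (Pearson r 0.997 each), RALB, a small GTPase (0.994), and GYG2, which primes glycogen, and DHCR7, the last enzyme of cholesterol synthesis (0.992 each). Their mean levels in EV, NFIB WT and NFIB ΔIDR were 349, 417 and 275 CPM for RCOR1, 29.5, 33.1 and 25.0 CPM for MGAT5, 39.1, 50.1 and 30.7 CPM for RALB, 66.2, 97.3 and 45.4 CPM for GYG2 and 93.8, 134 and 59.5 CPM for DHCR7. A high r says nothing of the size of a change. The libraries share groups and depth, 564 genes had r above 0.9, and the correlations are a description.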
